A study of Mus musculus with 90 samples.

Results

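Major urinary protein (Mup) genes were followed through 5 liver RNA-seq experiments, namely Mup3, Mup4, Mup5, Mup20, and Mup21. Members were the RefSeq transcripts that map to these 5 symbols, and each symbol had 1 RefSeq ID in the table. They are 5 of the 24312 gene symbols measured and 5 of 22 symbols that consist of Mup and digits. In mm9 all 5 lie on the minus strand of chromosome 4, with Mup4 (NM_008648) at chr4:59969676-59973582, Mup5 (NM_008649) at chr4:61492353-61496267, Mup20 (NM_001012323) at chr4:61711268-61715192, Mup3 (NM_001039544) at chr4:61744510-61748376, and Mup21 (NM_001009550) at chr4:61808966-61811897. Mup21 has 6 annotated exons and each of the others has 7.

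MUPs are small secreted lipocalins, barrel-shaped proteins that hold a volatile ligand in a central pocket. In adult male mice the liver makes them in large amounts under pulsatile growth hormone and STAT5, they pass from the blood into the urine, and they carry and release pheromones there. Mup20 encodes darcin, a male pheromone protein, whereas Mup4 and Mup5 are known mainly from nasal, lacrimal, and salivary glands. Glucocorticoids acting through the glucocorticoid receptor (GR), and insulin acting through the insulin receptor substrates IRS1 and IRS2, are hormone signals of the unfed and fed liver.

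All mice were male, and each of the 54 libraries was made from the liver of 1 mouse. Before the experiment the mice were trained to night-restricted feeding (NRF), with food present in the dark phase only. Food was given or withheld at zeitgeber time (ZT) 12. The NRF experiment held wild-type C57BL/6 mice (C57BL/6N in the methods) of 10 weeks in 3 groups (ZT10, ZT14-unfed, and ZT14-fed, with n = 2 each). Injected wild-type mice of the same age received PBS vehicle, dexamethasone (dex, a synthetic GR agonist) at 1 mg/kg, S961 (an insulin receptor antagonist, whose dose is given in different units in the labels and the methods), or both drugs before food was presented, and a vehicle group stayed unfed, with n = 4 each. In the L-GRKO experiment, Nr3c1 fl/fl mice (GR fl/fl, C57BL/6N background) had received, 2 weeks earlier by the labels and 12 days before NRF by the methods, an adeno-associated virus with GFP or with CRE, both driven by the liver-specific Tbg promoter, and were taken unfed at ZT14, with n = 4 each. In the L-IRSdKO experiment, Irs1 fl/fl Irs2 fl/fl mice of 10 weeks (C57BL/6J background) without or with Alb-Cre, which is active in hepatocytes, were all injected with 1 mg/kg dex and all fed, with n = 4 each, so that the controls carried the floxed alleles and the dex too. In the obesity experiment, wild-type mice received chow (lean) or a high-fat diet (obese) ad libitum for 10 weeks. They then went onto NRF and were taken unfed or fed at ZT14, with n = 3 each. The diet began at 5 weeks of age. The age of the GR fl/fl mice is given only as adult.

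The labels were checked first. Nr3c1 was 12.8 to 16.2 RPKM (reads divided by transcript length and by the size of the library) with AAV-GFP and 3.93 to 5.35 RPKM with AAV-CRE, and Irs1 was 2.21 to 4.73 RPKM without and 0.149 to 0.321 RPKM with Alb-Cre. Irs2, which insulin represses, overlapped between both genotypes at 0.614 to 5.61 against 0.272 to 1.00 RPKM. All 8 hepatocyte markers were above the filter in every group. The NRF libraries were made after ribosomal depletion and the others by poly(A) enrichment. In the L-IRSdKO experiment the highest symbol of a library was at 674 to 914 RPKM and Alb at 650 to 914 RPKM, against Alb levels of 18853 to 60597 RPKM in the other experiments, so that no test compares levels between experiments. In the injected mice the 4th replicate of each group carries another series of library numbers, and pairs with it differed by a robust SD of 0.267 to 0.529 (log2), against 0.098 to 0.405 among replicates 1 to 3. RPKM values hold no read counts, and the depth behind each value cannot be read from them.

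The 5 sequences are alike, and this decides what a read can tell. A 60-base piece of exon 3, at coding bases 247 to 306 of Mup20 (chr4:61713671-61713730, mm9, minus strand), is shown from the genome with capitals where a member differs from Mup20, because Mup3 and Mup21 share most of the differing bases here and Mup4 and Mup5 stay close to Mup20:
Mup3: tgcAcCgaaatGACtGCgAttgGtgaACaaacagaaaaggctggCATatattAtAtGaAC
Mup4: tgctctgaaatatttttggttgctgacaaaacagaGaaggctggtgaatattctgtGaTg
Mup5: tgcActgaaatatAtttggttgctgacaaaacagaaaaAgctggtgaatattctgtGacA
Mup20: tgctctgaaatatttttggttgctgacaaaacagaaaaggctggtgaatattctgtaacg
Mup21: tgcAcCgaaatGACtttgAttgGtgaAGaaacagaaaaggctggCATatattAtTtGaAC
Any member differs at 21 of the 60 positions, with 19 differences in Mup3, 17 in Mup21, 5 in Mup5, and 3 in Mup4. Over the whole coding sequence, identity between members ran from 83.6% to 94.77%, with Mup3 and Mup21 the closest pair and Mup4 and Mup5 next at 92.08%.

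Exons were also divided into overlapping stretches of 50 bases, and each stretch was looked up on both strands of mm9. Of these stretches 15.12% of Mup4, 15.73% of Mup5, 24.75% of Mup3, and 31.09% of Mup21 occurred at a second place, whereas 87.07% did for Mup20. The stretches of Mup3 were shared most with Mup21 (18.73%), those of Mup21 with Mup3 (29.02%), and those of Mup4 with Mup5 (12.71%). Mup20 shared 87.07% of its stretches with a place outside the named Mup genes. The copies of Mup20's stretches lay mostly at chr4:61610024-61619605 (45.58% of them) and chr4:61620376-61621054 (41.5%), a stretch of mm9 that holds the annotated pseudogene Mup-ps19. In the other 16 placed Mup symbols the share was 73.76% to 100%, apart from 5.631% in Mup6. How the authors counted reads that align to several places is not given in the sources used here, so the values of Mup20 in particular may hold reads of its copy, or lack reads that were shared, and this was not tested.

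Mup3 was the member with the highest RPKM in all 54 libraries, followed by Mup20, Mup21, and the pair Mup5 and Mup4. By its mean, Mup3 ranked 2nd of 24312 symbols in the NRF and the injected mice, 5th in the L-GRKO and the obesity experiment, and 54th in the L-IRSdKO experiment. Mup20 ranked 7th, 14th, 19th, and 19th in the NRF, injected, L-GRKO, and obesity experiments, and 1224th in the L-IRSdKO experiment. Mup21 ranked between 220th and 1551st, and Mup4 and Mup5 between 3723rd and 13872nd. The 22 Mup symbols together made up 5.51% to 7.89% of the summed RPKM in the NRF mice and 1.70% to 6.59% in the injected mice. They made up 1.34% to 4.29% in the L-GRKO, 2.07% to 4.38% in the obesity, and 0.133% to 0.335% in the L-IRSdKO experiment.

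Neighbours in this order were set against each other within libraries, with RPKM as the per-length scale. Mup3 exceeded Mup20 in 54 of 54 libraries, Mup20 exceeded Mup21 in 52 of 54, and Mup21 exceeded Mup5 in 54 of 54. Mup5 exceeded Mup4 in 41 of 54 libraries and in 7 of 12 of the obesity and 4 of 8 of the L-IRSdKO experiment, so that both could not be ordered there. Mup4 was at most 0.189 RPKM in the 8 GR fl/fl mice, under the filter of a mean of 0.5 RPKM, and was at 1.30 to 3.88 RPKM in the 12 mice of the obesity experiment. Of 10 markers of the glands in which Mup4 and Mup5 are known, 9 stayed below 0.5 RPKM in every library. The remaining marker, Amy1, had a mean above this level in every group, and the list with it summed to 68.7 to 166 RPKM per library.

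**Figure D1:**
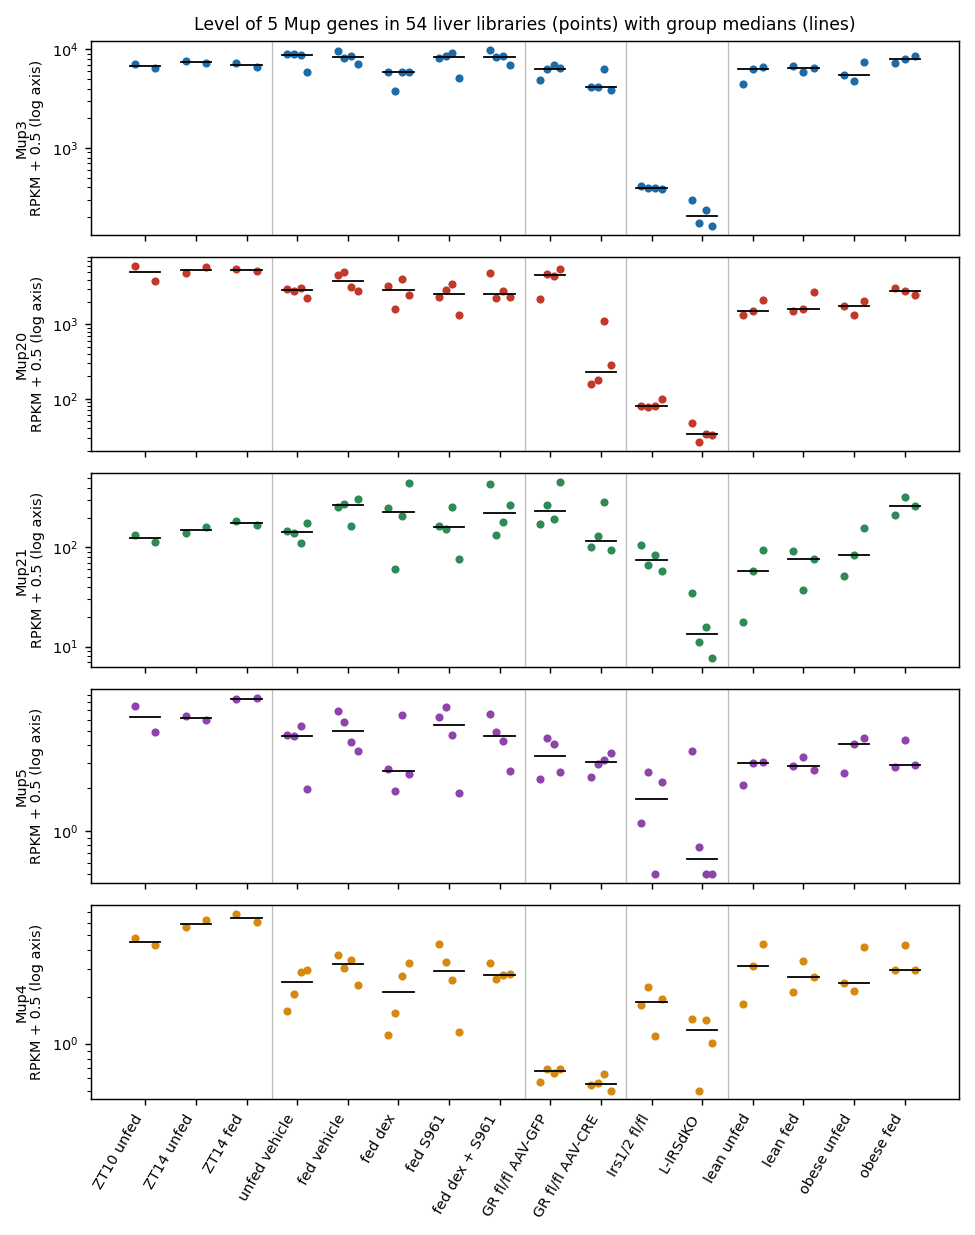
RPKM + 0.5 (log axis) of the 5 Mup genes in each of the 54 libraries (points), by group in the order NRF, injected, L-GRKO, L-IRSdKO, and obesity experiments (separated by lines), with group medians as bars. Mup20 stands lower in the AAV-CRE group than in the AAV-GFP group, and Mup3, Mup20, and Mup21 are lower in L-IRSdKO than in their floxed controls.

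Loss of GR in the unfed liver went with much less Mup20 RNA, whereas no other member passed the test. Mup20, the gene of darcin, was 2201, 4769, 4397, and 5558 RPKM in the 4 mice with AAV-GFP, and 158, 176, 1124, and 283 RPKM in the 4 mice with AAV-CRE. The 3rd AAV-CRE mouse was the highest of its group and still lower than the lowest AAV-GFP mouse, so that the groups did not overlap. The difference was -3.70 on the log2(RPKM + 0.5) scale (SE 0.54, 95% interval -4.89 to -2.51), a 13.0-fold lower level, with an adjusted p of 0.0032 by limma with Benjamini-Hochberg (BH) adjustment over all symbols tested. The 3rd AAV-CRE mouse had as little Nr3c1 RNA (4.14 RPKM) as the others of its group (3.93, 4.23, and 5.35 RPKM), and Fkbp5, a direct GR target, was 6.00 RPKM there against 7.08 to 7.57 RPKM in the others. As these are whole livers, fewer cells that express a gene and less RNA per cell cannot be told apart.

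Mup3, the most abundant member, was 4900, 6312, 6984, and 6438 RPKM with AAV-GFP and 4186, 4115, 6350, and 3871 RPKM with AAV-CRE. The 3rd AAV-CRE mouse lay among the controls and the other 3 lay below them, with a difference of -0.43 (SE 0.18, limma, BH-adjusted p = 0.209). Mup21 was 173, 269, 193, and 459 RPKM with AAV-GFP and 101, 130, 290, and 92.7 RPKM with AAV-CRE. Its groups overlapped in the same mouse, and the difference was -0.88 (SE 0.37, adjusted p = 0.211, limma). Mup5 differed by -0.12 (SE 0.22, adjusted p = 0.828, limma), at 1.83 to 3.98 against 1.89 to 3.04 RPKM, and Mup4 was not tested at its level near 0.

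Of the 4 members tested, 1 was called lower at the threshold of 0.05, and 6.68% of the 11649 symbols tested were called in either direction. Without the 3rd AAV-CRE mouse, 2 members were called, Mup20 with a difference of -4.32 (adjusted p = 0.00011, limma) and Mup21 with -1.24 (adjusted p = 0.0432, limma), whereas Mup3 had -0.59 (adjusted p = 0.0557, limma). Of the 17 other Mup symbols, Mup1 was called higher and Mup2 and Mup18 lower. Mup2 in the 3rd AAV-CRE mouse reached 375 RPKM, against 7.07, 10.2, and 29.7 RPKM in the other mice with AAV-CRE and 236 to 1207 RPKM with AAV-GFP. Reads of Mup2 and of the other Mup symbols that share most of their stretches cannot be assigned with certainty.

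Loss of Irs1 and Irs2 in hepatocytes of fed, dex-injected mice went with lower Mup3, Mup20, and Mup21. Mup21 was 105, 66.0, 83.4, and 57.8 RPKM in the floxed controls and 33.9, 10.8, 15.4, and 7.14 RPKM in L-IRSdKO. All 4 L-IRSdKO mice were below all controls, with a difference of -2.38 (SE 0.41, 95% interval -3.30 to -1.45), that is 5.20-fold lower (adjusted p = 0.0075, limma). Mup20 was 79.3, 76.7, 78.7, and 97.3 RPKM in the controls and 46.3, 25.6, 33.2, and 32.4 RPKM in L-IRSdKO. Again the groups did not overlap, and the difference was -1.29 (SE 0.16, 95% interval -1.66 to -0.92), 2.44-fold lower (adjusted p = 0.0031, limma).

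Mup3 was 411, 388, 393, and 379 RPKM in the floxed controls and 293, 175, 232, and 161 RPKM in L-IRSdKO. The controls lay close together, the L-IRSdKO mice spread more widely below them, and the difference was -0.91 (SE 0.17, 95% interval -1.29 to -0.53), 1.88-fold lower (adjusted p = 0.0097, limma). Mup4 was 1.26, 1.81, 0.625, and 1.43 against 0.944, 0, 0.925, and 0.513 RPKM (log2 difference -0.77, SE 0.38, adjusted p = 0.193, limma). Mup5 was 0.634, 2.11, 0, and 1.73 RPKM in the controls and 3.16, 0.274, 0, and 0 RPKM in L-IRSdKO, with overlapping groups and a log2 difference of -0.56 (SE 0.73, adjusted p = 0.639, limma). With 3 of the 5 members called lower, the share stood beside a background of 17.4% of 12966 symbols called in either direction, with a median of -0.91 for the members and 0.03 for all symbols.

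**Figure D2:**
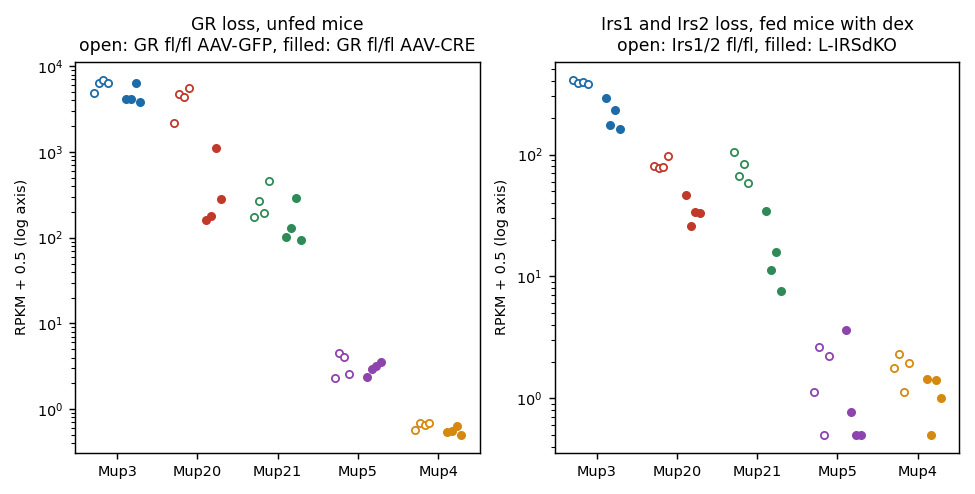
RPKM + 0.5 (log axis) of the 5 Mup genes in each library of the L-GRKO experiment (left, AAV-GFP open, AAV-CRE filled) and the L-IRSdKO experiment (right, floxed controls open, L-IRSdKO filled), with 4 libraries per group. The filled points lie below all open points for Mup20 on the left, and for Mup3, Mup20, and Mup21 on the right, and overlap with them for Mup5 on both sides.

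Genes with a known sex bias in liver, which share the growth hormone control of the MUPs, were counted beside them. These lists were chosen with earlier results of these data known, so that their counts are no independent test. Of the 12966 symbols tested in L-IRSdKO, 1175 were called higher and 1078 lower. In L-IRSdKO, 16 of 18 male-biased genes were called lower and 0 higher (median -1.94), among them Hsd3b5, a steroid dehydrogenase, at 60.6 RPKM in the controls and 3.26 RPKM in L-IRSdKO, and Elovl3, a fatty acid elongase, at 85.8 and 6.15 RPKM. Of 10 female-biased genes tested, 7 were called higher and 0 lower (median 2.27), with Cyp2b9, a cytochrome P450, rising from 0.140 to 59.3 RPKM. Of 18 genes of growth hormone and STAT5 signalling, 2 were called higher and 2 lower. Over all symbols 17.4% were called. As examples from this list, Ghr, the growth hormone receptor, fell from 134 to 84.0 RPKM. Cux2, a transcription factor of the female liver, rose from 0.778 to 11.2 RPKM. Whether growth hormone signalling differed was not tested.

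Of the 17 other Mup symbols, 9 were called lower and 0 higher in L-IRSdKO (Mup1, Mup7, Mup8, Mup11, Mup12, Mup14, Mup16, Mup17, and Mup18), beside 1078 of 12966 symbols called lower. Of their stretches of 50 bases, 73.76% (Mup17) to 97.2% (Mup14) also occur elsewhere in mm9. The same reads may therefore stand behind several of these calls. Of 10 other lipocalins tested, 5 were called lower, including Orm3, an acute-phase protein (47.5 against 16.7 RPKM), and Obp2a, an odorant binding protein (6.23 against 0.765 RPKM). Of 8 Kupffer cell markers, 3 were called higher, and their summed level was 204 to 361 RPKM in the controls and 350 to 428 RPKM in L-IRSdKO. For hepatocyte markers the summed level was 2877 to 3289 RPKM in the controls and 2670 to 3121 RPKM in L-IRSdKO, with 1 of 8 called lower. Endothelial markers were called higher in 4 of 6 cases (summed 92.1 to 119 against 114 to 149 RPKM), and stellate cell markers in 1 of 4 (90.7 to 110 against 109 to 129 RPKM, with Acta2 below 0.5 RPKM in every control and Col1a1 in every L-IRSdKO mouse). Cholangiocyte markers were called lower in 2 of 4 cases (19.9 to 46.3 against 7.999 to 13.97 RPKM, with Cftr below 0.5 RPKM in both groups). Whether cell composition had a part in the Mup differences was not tested.

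The sex-biased lists did not move in 1 direction after loss of GR. Of the 11649 symbols tested in the L-GRKO experiment, 519 were called higher and 259 lower. Beside this, 5 of 17 male-biased genes tested were called lower and 2 higher (median -0.09). Among them Selenbp2 fell from 1044 to 227 RPKM and Hsd3b5 rose from 62.5 to 93.1 RPKM. Of 8 female-biased genes, 2 were called higher and 1 lower. Ghr, an example from the growth hormone list, rose from 149 to 221 RPKM, and the counts of that list are not given for L-GRKO. Kupffer cell markers were called in 0 of 8 cases (limma) and summed to 85.0 to 192 RPKM with AAV-GFP and 94.3 to 169 RPKM with AAV-CRE, and 2 of 8 hepatocyte markers, Cps1 and Tdo2, were called lower. Endothelial markers summed to 47.3 to 72.6 RPKM with AAV-GFP and 60.9 to 80.1 RPKM with AAV-CRE. Stellate cell markers summed to 33.9 to 51.1 and 48.6 to 71.2 RPKM, and cholangiocyte markers to 10.2 to 18.45 and 12.3 to 19.5 RPKM. Whether cell composition had a part in the Mup20 difference was not tested. The difference between the L-GRKO and L-IRSdKO responses was not tested, because feeding, dex, and the scale of the libraries differ between them.

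In injected mice, the members' levels spread widely within groups, and 0 members passed the main test in any comparison. The fit behind it held no term for the series of library numbers, with which Mup3 was called lower for dex, as given below. Feeding of vehicle-injected mice left Mup3 at 9590, 8220, 8628, and 7149 RPKM, against 8899, 8897, 8664, and 5933 RPKM in unfed mice, which overlapped. All 5 members had a log2 difference above 0 after feeding, from 0.06 (Mup3, SE 0.19) to 0.79 (Mup21, SE 0.47). They share sequence and were measured in the same mice, so that their directions are not independent. By limma 0 of 5 were called and 0 of 5 had an unadjusted p under 0.05. The background was 3.13% of 11251 symbols called, 287 higher and 65 lower. Unfed vehicle replicates 1 to 3 differed from each other by 0.098 to 0.13 (robust SD, log2), less than any other pair of the injected mice, and the labels do not say whether they are separate extractions. With these 3 averaged as 1 library, an alternative chosen after seeing the data, 0 of 5 members were called.

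Fed mice with dex had the lowest mean Mup3 level of this experiment. Mup3 was 5925, 3814, 5950, and 5835 RPKM with dex, and all 4 values were below the 4 fed vehicle mice. The log2 difference was -0.66 (SE 0.19, 95% interval -1.06 to -0.25), and it missed the threshold with an adjusted p of 0.0695 by limma. With a replicate block the adjusted p was 0.0169 and Mup3 was called, as it was with a term for the series of library numbers (adjusted p = 0.0140) and, chosen after seeing the data, in replicates 1 to 3 alone (log2 difference -0.78, adjusted p = 0.0068, limma).

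Mup20 was 3232, 1588, 4094, and 2496 RPKM with dex and 4567, 4995, 3130, and 2789 RPKM with vehicle, which overlapped. The other members also had differences below 0, namely -0.71 (Mup5, SE 0.43), -0.64 (Mup4, SE 0.35), -0.48 (Mup20, SE 0.31), and -0.34 (Mup21, SE 0.47), with adjusted p between 0.343 and 0.759 by limma. In all, 0 of 5 members were called by limma and 1 of 5 had an unadjusted p under 0.05. The background was 3.19% of symbols called, 113 higher and 246 lower. Among the 17 other Mup symbols Mup1 and Mup2 were called lower, and 3 of 17 male-biased genes were called lower and 2 of 7 female-biased genes higher.

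S961 in fed mice left Mup3 at 8154, 8472, 9199, and 5137 RPKM and Mup20 at 2299, 2872, 3486, and 1345 RPKM. Mup20 overlapped with its vehicle group and differed by -0.67 (SE 0.31, unadjusted p = 0.0465, adjusted p = 0.342, limma). For S961, 0 of 5 members were called by limma and 1 of 5 had an unadjusted p under 0.05, beside 1.9% of symbols called. With both drugs, Mup3 was 9948, 8432, 8462, and 7017 RPKM, all above the dex group and overlapping with vehicle (log2 difference 0.01, SE 0.19, 95% interval -0.40 to 0.41, adjusted p = 0.987, limma).

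For both drugs against fed vehicle, 0 of 5 members were called by limma and 0 of 5 had an unadjusted p under 0.05, with 10.6% of symbols called. Against unfed vehicle the counts were again 0 of 5 and 0 of 5 (limma), with 2.32% of symbols called. The interaction of dex with S961, which asks whether the dex response differed when the insulin receptor was blocked, was 0.81 for Mup3 (SE 0.27, 95% interval 0.24 to 1.38, unadjusted p = 0.0081, adjusted p = 1.00, limma) and 0.67 to 0.97 for the other members. By limma 0% of 11251 symbols were called for this interaction, while 513 had an unadjusted p under 0.05, of which Mup3 was the 1 member. These comparisons share the fed vehicle mice.

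**Figure D3:**
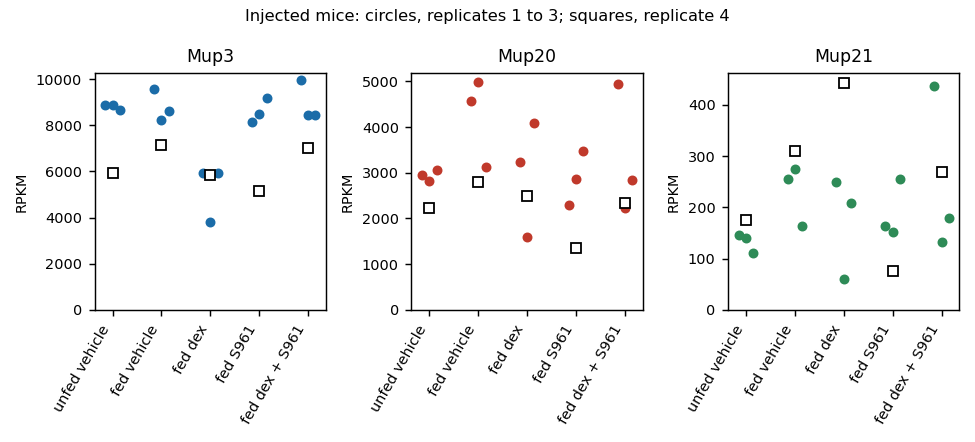
RPKM of Mup3, Mup20, and Mup21 in the 20 injected mice, by group, on axes that start at 0, with replicates 1 to 3 as circles and the 4th replicate, from the other series of library numbers, as squares. For Mup3 the 4 dex values lie below the 4 fed vehicle values, and the 4th replicate is the lowest of its group in 4 of 5 groups.

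Time of day and the meal were compared in uninjected mice, where 0 members passed the test. Mup3 was 7072 and 6412 RPKM at ZT10, 7578 and 7281 RPKM at ZT14-unfed, and 7240 and 6629 RPKM at ZT14-fed. Mup20 was 6147 and 3868 RPKM at ZT10, 4898 and 5845 RPKM at ZT14-unfed, and 5536 and 5211 RPKM at ZT14-fed. Mup20 overlapped between the 3 groups. Mup3 was above both other groups at ZT14-unfed, by a log2 difference of 0.14 from ZT10 (SE 0.09, adjusted p = 0.382, limma), and ZT14-fed differed from ZT14-unfed by -0.10 (SE 0.09, adjusted p = 0.527, limma).

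At the threshold of 0.01 used for this experiment, 0 of 5 members were called between ZT10 and ZT14-unfed (1 of 5 at an unadjusted p under 0.05), with 1.16% of 10907 symbols called by limma. For the meal at ZT14 the count was also 0 of 5 (1 of 5 at an unadjusted p under 0.05), with 0.99% of symbols called. Between ZT10 and ZT14-fed it was 0 of 5 (3 of 5 at an unadjusted p under 0.05), with 1.71% of symbols called. Mup21 was 134 and 114 RPKM at ZT10 and 186 and 168 RPKM at ZT14-fed, with no overlap, a log2 difference of 0.51 (SE 0.12), and an adjusted p of 0.0437 by limma. Mup4 was 4.28 and 3.78 RPKM at ZT10 and 6.31 and 5.55 RPKM at ZT14-fed (log2 difference 0.51, SE 0.12, adjusted p = 0.0435, limma). Both missed the threshold of 0.01, and with 2 mice per group the spread rests on few values.

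In obese mice, 4 of the 5 members had a higher mean in fed than in unfed livers, and 0 were called. Mup21 was 51.6, 82.8, and 155 RPKM in unfed obese mice and 212, 320, and 262 RPKM in fed obese mice, without overlap. The log2 difference was 1.57 (SE 0.57, 95% interval 0.31 to 2.84, adjusted p = 0.116, limma). Mup20 was 1747, 1339, and 2091 RPKM unfed and 3126, 2833, and 2459 RPKM fed, also without overlap, with a log2 difference of 0.72 (SE 0.25, 95% interval 0.18 to 1.26, adjusted p = 0.0976, limma).

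Mup3 was 5474, 4743, and 7371 RPKM in unfed and 7239, 8028, and 8462 RPKM in fed obese mice, which overlapped in 1 mouse (log2 difference 0.45, SE 0.19, adjusted p = 0.171, limma). For the meal in obese mice, 0 of 5 members were called by limma and 3 of 5 had an unadjusted p under 0.05. The background was 1.22% of 11434 symbols called, 110 higher and 30 lower. In lean mice the groups overlapped for all 5 members, with Mup3 at 4413, 6380, and 6691 RPKM unfed and 6789, 5948, and 6418 RPKM fed, and Mup21 at 17.4, 57.6, and 94.8 RPKM unfed and 92.6, 36.9, and 76.6 RPKM fed. There 0 of 5 members were called by limma and 0 of 5 had an unadjusted p under 0.05, while 10.2% of symbols were called.

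Fed obese mice had more Mup21 RNA than fed lean mice by value, with all 3 obese above all 3 lean mice and a log2 difference of 2.02 (SE 0.57, 95% interval 0.75 to 3.28, unadjusted p = 0.0048, adjusted p = 0.113, limma). For obese against lean fed mice, 0 of 5 members and 0% of symbols were called by limma, with 2 of 5 members and 2284 symbols at an unadjusted p under 0.05. In unfed mice, 0 of 5 members were called by limma and 0 of 5 had an unadjusted p under 0.05, beside 0.77% of symbols. The interaction of diet and meal called 0 of 5 members (limma, 0 of 5 at an unadjusted p under 0.05), beside 0.131% of symbols, and was 1.10 for Mup21 (SE 0.81, adjusted p = 0.561, limma), so that the meal response was not shown to differ between diets. The comparisons of a diet or a meal share mice with each other.

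**Figure D4:**
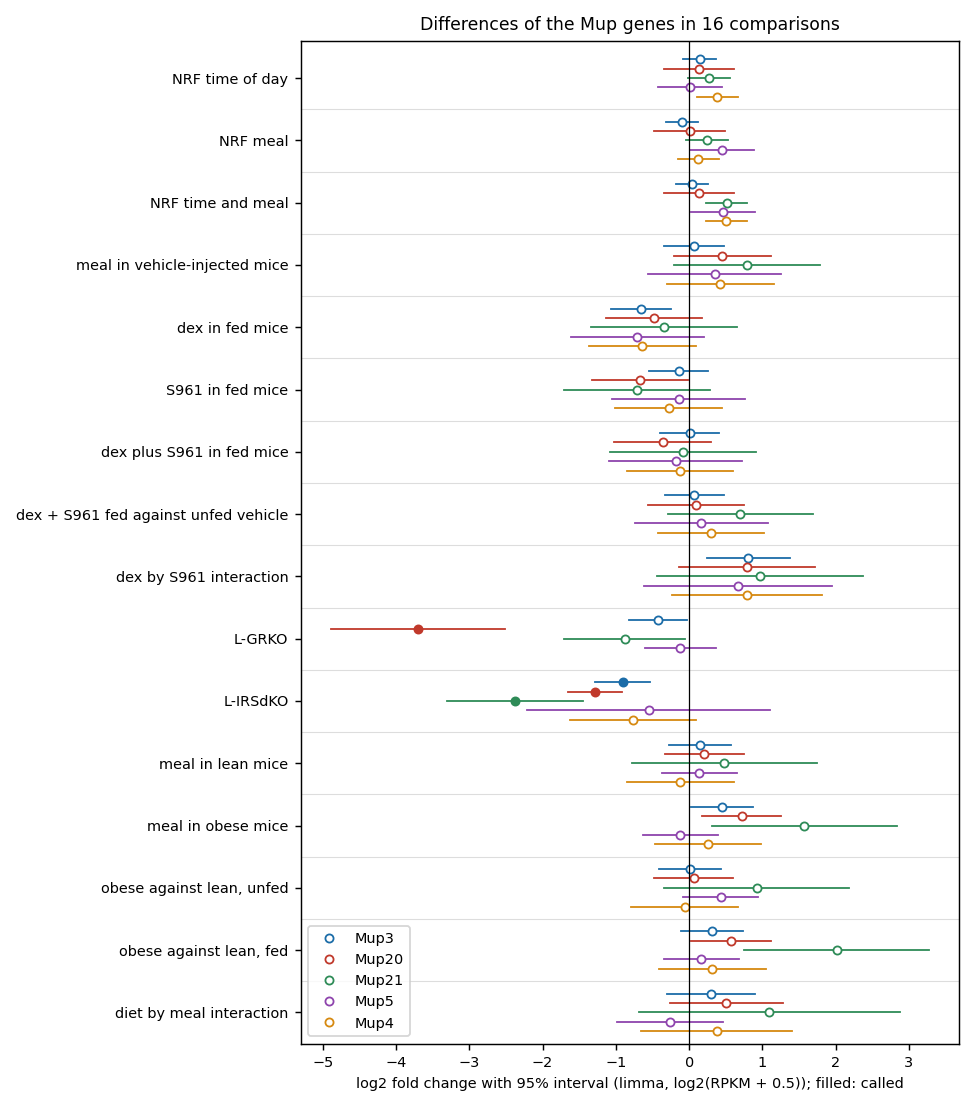
Log2 fold change of each member on the log2(RPKM + 0.5) scale (points) with its 95% interval (lines) in 16 comparisons, by limma, with filled points for called members. The 4 filled points are Mup20 in L-GRKO at -3.70, and Mup3, Mup20, and Mup21 in L-IRSdKO at -0.91, -1.29, and -2.38.

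Peaks of open chromatin (DNase hypersensitive sites, DHSs), GR, and FOXO1, a transcription factor that insulin inactivates, were placed around the starts. The GR and FOXO1 peaks are those concordant between replicates of unfed wild-type mice, and the lists give positions without a strength or a condition. Within 50 kb of its start, Mup20 had 14 DHSs, 9 GR peaks, and 5 FOXO1 peaks, the highest numbers among the members, and Mup3 had 8, 6, and 3. Mup21 had 4 DHSs, 4 GR peaks, and 3 FOXO1 peaks, Mup5 had 8, 3, and 3, and Mup4 had 7 DHSs and 2 GR peaks, with its nearest FOXO1 peak 392862 bases away. Among 19783 placed genes, 88.43% had a DHS, 33.83% a GR peak, and 35.42% a FOXO1 peak within this distance. All 8 DHSs, 6 GR peaks, and 3 FOXO1 peaks of Mup3 are also counted for the neighbouring Mup20, whereas Mup21 shared 0 peaks with either at this distance.

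**Figure D5:**
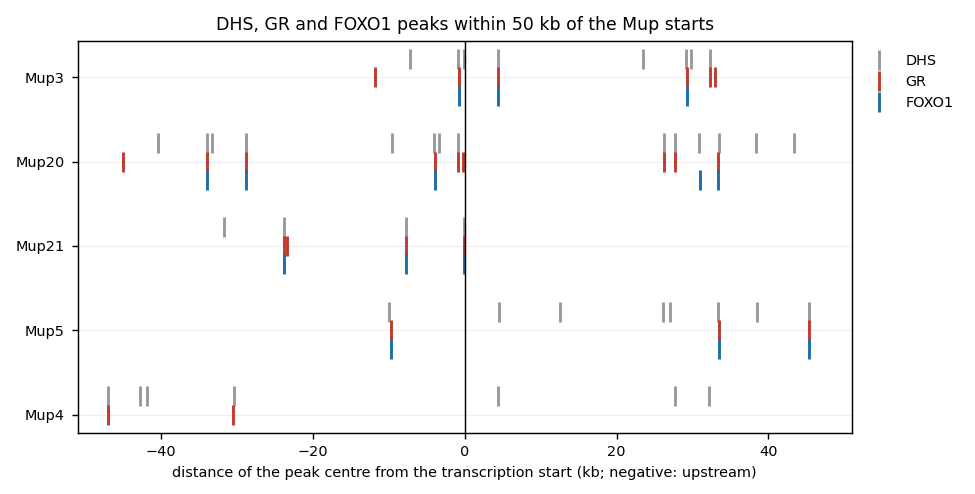
Distance of the centres of DHSs, GR peaks, and FOXO1 peaks from the transcription start of each member, in kb and in the direction of transcription, within 50 kb. GR peaks stand directly upstream of the starts of Mup3, Mup20, and Mup21, whereas the nearest GR peaks of Mup5 and Mup4 lie 9591 and 30489 bases away.

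GR peaks within 1 kb upstream were found at Mup20 (84 and 778 bases from the start), Mup3 (717 bases), and Mup21 (29 bases), and FOXO1 peaks at Mup3 (730 bases) and Mup21 (52 bases). The 4 GR peaks are shown on the minus strand of mm9, because they are the bound sequences nearest to the members that were lower in L-IRSdKO, with capitals for the GR hexamer TGTTCT or its complement AGAACA and for the forkhead motif GTAAACA. They span chr4:61749093-61749272 (Mup3), chr4:61715276-61715455 and chr4:61715970-61716149 (Mup20), and chr4:61811926-61812105 (Mup21):
Mup3, 717 bases upstream: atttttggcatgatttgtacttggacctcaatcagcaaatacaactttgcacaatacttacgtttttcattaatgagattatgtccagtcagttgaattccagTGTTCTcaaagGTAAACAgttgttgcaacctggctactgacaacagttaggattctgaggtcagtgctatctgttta
Mup20, 84 bases upstream: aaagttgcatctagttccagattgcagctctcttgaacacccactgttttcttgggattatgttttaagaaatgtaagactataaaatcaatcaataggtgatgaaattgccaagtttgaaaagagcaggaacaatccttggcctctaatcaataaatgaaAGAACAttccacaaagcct
Mup20, 778 bases upstream: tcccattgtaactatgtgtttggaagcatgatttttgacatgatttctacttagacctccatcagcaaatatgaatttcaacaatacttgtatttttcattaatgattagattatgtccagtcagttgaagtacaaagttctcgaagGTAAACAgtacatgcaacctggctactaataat
Mup21, 29 bases upstream: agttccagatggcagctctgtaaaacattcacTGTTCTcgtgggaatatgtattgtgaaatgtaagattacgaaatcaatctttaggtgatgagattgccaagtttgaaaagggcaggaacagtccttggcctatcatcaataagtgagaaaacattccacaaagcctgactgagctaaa
Both strands were searched for 6 motifs. The Mup3 peak holds TGTTCT and GTAAACA, the nearer Mup20 peak and the Mup21 peak hold the hexamer only, and the farther Mup20 peak holds GTAAACA only. TGTTCT was found in 27.7% and GTAAACA in 7.29% of all 10446 GR peaks, which have the same length. The STAT5 motif TTCNNNGAA (8.9% of peaks), the full palindromic GR site, which holds AGAACA and TGTTCT with 3 bases between them (0.287%, and contains the hexamer), the C/EBP motif TTGCGCAA (0.517%), and the HNF4 motif CAAAGTCCA (1.89%) had 0 matches in these 4 peaks. The nearer Mup20 peak shares 65.65% of its stretches of 50 bases with a second place in mm9, against 0% for the farther Mup20 peak.

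Promoters were read for Mup3, Mup4, and Mup21 from RefSeq (GRCm38.p6), as the 250 bases before the start, and 2 of them are shown because Mup3 and Mup4 stand at opposite ends of the levels with similar upstream sequence. They span chr4:62087318-62087567 (Mup3) and chr4:59960668-59960917 (Mup4) on the minus strand, with TGTTCT in capitals:
Mup3 promoter: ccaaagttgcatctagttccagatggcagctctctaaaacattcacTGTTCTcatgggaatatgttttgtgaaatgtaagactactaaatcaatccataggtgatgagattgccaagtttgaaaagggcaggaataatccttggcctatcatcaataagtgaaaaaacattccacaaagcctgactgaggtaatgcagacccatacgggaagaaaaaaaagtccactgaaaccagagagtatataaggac
Mup4 promoter: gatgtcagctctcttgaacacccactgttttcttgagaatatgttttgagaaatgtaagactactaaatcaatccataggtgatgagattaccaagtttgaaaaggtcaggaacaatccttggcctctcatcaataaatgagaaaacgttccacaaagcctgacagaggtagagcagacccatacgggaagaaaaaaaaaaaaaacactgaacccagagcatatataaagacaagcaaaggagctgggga
Of the aligned bases, 88.65% were identical between Mup3 and Mup4, 84.75% between Mup4 and Mup21, and 93.44% between Mup3 and Mup21. TGTTCT begins 204 bases before the start of Mup3 and 198 bases before that of Mup21 and was not matched in the Mup4 window, and it occurs in 16.1% of 32851 promoters of this length. TTCNNNGAA (7.02% of promoters), GTAAACA (3.17%), the palindromic GR site (0.00913%), TTGCGCAA (0.164%), and CAAAGTCCA (0.384%) had 0 matches in the 3 windows. The promoters of Mup5 and Mup20 were not used here.

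The members' patterns were set beside those of other genes across the 54 libraries, after the mean of each experiment had been subtracted on the log2 scale. Among 10500 symbols outside the family, Mup3 was most like Slco1a1 (r = 0.794), Cyp7b1 (0.793), Cyp2d9 (0.778), C6 (0.777), and Ugt2b1 (0.765). The first 4 are on the male-biased list, which was chosen with earlier results of these data known. With group means subtracted, these r values were 0.753 (Slco1a1), 0.682 (Cyp7b1), 0.585 (Cyp2d9), 0.715 (C6), and 0.703 (Ugt2b1). Mup21 was most like C6 (r = 0.796), Ces3a (0.792), Hao1 (0.787), C9 (0.780), and Cyp4v3 (0.779). Mup20 was most like Nr3c1 itself (r = 0.758), Serpina3k (0.745), and Phyh (0.725), and with group means subtracted its r with Nr3c1 was 0.327. Mup4 was most like Cyp7b1 (r = 0.657) and Mbl1 (0.635), and Mup5 like C4bp (0.698) and Cmc4 (0.658). Among the members, the highest r was that of Mup3 and Mup21 (0.722) and the lowest that of Mup5 and Mup20 (0.311). All points of a correlation share libraries and groups, and Nr3c1 was itself deleted in 4 of them, so that these values describe the libraries only.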

How the data were processed

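Liver RNA-seq from 54 mice was used, with lists of DHSs, GR peaks, and FOXO1 peaks. The authors aligned reads to mm9 with STAR and deposited RPKM values per RefSeq transcript, in which reads are divided by transcript length and library size, while DESeq2 served them for their own calls. The authors called peaks with HOMER, for DHSs on combined replicates, and deposited positions only. The tools and build are those of the submitters' processing notes. RPKM values keep no read counts, so that a count model could not be used.

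Of 35707 RefSeq IDs, 35407 had a symbol, and a symbol was represented by its ID with the highest mean. Each experiment was fitted apart, all groups together, on log2(RPKM + 0.5) values, for symbols with a mean of at least 0.5 RPKM, by limma (3.58.1, R 4.3.3) with a variance trend and BH adjustment. Thresholds were 0.01 (NRF, obesity) and 0.05 (other experiments), as in the study. Sequences and peaks were handled in Python 3.11.15 with Biopython 1.88, numpy 2.4.6, and pandas 2.3.3 on mm9 with GENCODE exons, and promoters came from RefSeq (3 of 5 members matched). On simulated data with 200 changed symbols drawn from all symbols tested, a log2 change of 1 was recovered for 91% in the L-GRKO and 74% in the L-IRSdKO design. The share was 83% for the NRF meal, 83% for dex, and 85% for the meal in lean mice. These shares describe symbols at large and not the members, whose spread can be wider, as for Mup20 in L-GRKO (SE 0.54).

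The members and the gene lists were chosen with earlier results of these data known. Genes outside the family were named as examples of these lists, or as the 5 symbols most like a member. A single gene on these lists is not reported here. Alternatives were other pseudocounts, filters, scalings, ID rules, and variance models, a replicate block, a term for the library series, the compared groups alone, and each library left out. The labels name single mice as replicates but not separate extractions, and p-values measure the spread between these libraries. No protein sequences were used here.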

Additional observations from a re-analysis of the deposited data

Results flagged for a closer look

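In groups of 4 mice, 6 of 45 combinations of a member and a group had 1 mouse far from the other 3, by the ratio of its gap to the range of the group. For independent and normally distributed values the cut-off would flag about 1 in 20 such groups, or 2.25 of 45. The combinations reuse the same mice and RPKM values need not be normal, so that the number of flags was not tested against this. After AAV-CRE the 3rd mouse stood apart for both Mup20, at 1124 RPKM against 158, 176, and 283 RPKM, and Mup3, at 6350 RPKM against 3871, 4115, and 4186 RPKM, although its Nr3c1 RNA was 4.14 RPKM. In fed dex mice Mup3 was 3814 RPKM in the 2nd mouse and 5835, 5925, and 5950 RPKM in the others. In unfed vehicle mice Mup3 was 5933 RPKM in the 4th mouse, from the other series of library numbers, and 8664, 8897, and 8899 RPKM in the others. Mup20 in the floxed IRS controls was 97.3 RPKM in the 4th mouse and 76.7, 78.7, and 79.3 RPKM in the others. Mup5 in L-IRSdKO was 3.16 RPKM in the 1st mouse and 0, 0, and 0.274 RPKM in the others.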

How the results depend on the processing

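The number of members called was recomputed 322 times over the 16 comparisons and was within 1.5 times that reported in 317, and 0 called members changed direction. Outside L-GRKO and L-IRSdKO the reported count was 0, so that a recomputed count within this range only means 0 again. L-IRSdKO called 3 members under every alternative run, with adjusted p up to 0.0322 for Mup3, 0.0143 for Mup20, and 0.0280 for Mup21. L-GRKO called 1 to 2 members with a library left out (2 without the 3rd AAV-CRE mouse) and 1 otherwise. Between ZT10 and ZT14-fed, a threshold of 0.05 called 2 members. For dex in fed mice, a replicate block called 1 member, a library series term 1, and replicates 1 to 3 alone, chosen after seeing the data, 2 (Mup3 and Mup4). The causes were not tested. Same-numbered injected mice correlated by over 0.1 in 27 of 40 pairs. The 10 pairs of 4th replicates, which share a series of library numbers, correlated by 0.441 to 0.606, and the 30 pairs of replicates 1 to 3 by -0.12 to 0.316. In the other experiments the range was -0.201 to 0.215. As not every pair exceeded 0.1, the numbers were not taken to pair the mice. The main fit also held no term for the series that the 4th replicates share, so that its calls leave this series out of account. The replicate block changed no other call of a member. Of the 25 genes most like a member, 14 were shared with Spearman's rho and 10 with group means subtracted.

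Counts over all symbols moved more, and each is followed by its lowest and highest value over the alternatives. L-GRKO called 778 symbols (270 to 1344), L-IRSdKO 2253 (578 to 3845), dex 359 (87 to 1096), S961 214 (24 to 478), both drugs 1193 (468 to 2204) against fed and 261 (40 to 546) against unfed vehicle, and their interaction 0 (0 to 4). The meal called 352 (0 to 1036) in vehicle-injected, 108 (5 to 738) in NRF, 1169 (424 to 2673) in lean, and 140 (0 to 875) in obese mice. ZT10 to ZT14-unfed called 127 (2 to 976), ZT10 to ZT14-fed 186 (3 to 1020), obese against lean 88 (5 to 597) unfed and 0 (0 to 93) fed, and diet by meal 15 (0 to 85). For low values, as of Mup4 and Mup5, the number of reads behind them cannot be read from RPKM values.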

Other observations

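Some Mup levels of the unfed control mice are set side by side for the L-GRKO and the injected mice, which differ in genotype, virus, injection, and library, so that these cannot be told apart. Mup4 was 0.067 to 0.189 RPKM in GR fl/fl mice with AAV-GFP, against 1.11 to 2.47 RPKM in unfed vehicle-injected wild-type mice. Mup2 went the other way, with 236 to 1207 RPKM in the former and 3.14 to 4.27 RPKM in the latter, and Mup10 was 195 to 339 RPKM against 518 to 1530 RPKM. The stretches of 50 bases of Mup2 occur at up to 15 places in mm9 and 95.09% of them at more than 1, whereas 15.12% of those of Mup4 do. These levels were not compared by a test.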
